A study of Mus musculus with 2 samples.

Results

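The S100 and annexin families are 2 groups of small calcium-binding proteins, and their transcripts were followed here across cells sorted from mouse hair follicles in the growth phase. Members were the features whose symbol starts with S100 or reads Anxa followed only by digits. That rule found 29 of the 31053 features, of which 18 carry an S100 symbol and 11 an annexin symbol. One of the 18, S100pbp, encodes a protein that binds an S100 protein and is no S100 gene itself; it was kept because the rule names it.

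S100 proteins are small EF-hand proteins that usually act as dimers: calcium opens a surface on the dimer, which then grips a target protein. Annexins bind acidic phospholipids in the presence of calcium and tether membranes to each other or to the cytoskeleton. Several members work as pairs, such as S100a10 with Anxa2 and S100a11 with Anxa1, and in skin many S100 genes sit beside the genes of the cornified envelope and are known for their activity in keratinocyte differentiation and injury.

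Skin of wild-type mice (strain C57BL/6;CD1), taken at postnatal day 32 during anagen, when follicles grow, gave 2 droplet libraries prepared with 10x Genomics 3′ chemistry. Cells were sorted for CD34, a surface protein of bulge stem cells, and for a green fluorescent histone, H2BGFP, driven by the keratin 14 promoter (K14), which is active in basal keratinocytes of all skin epithelium. The libraries carry replicate labels within a single untreated group, and nothing in the labels says whether they came from separate animals. The p-values below therefore measure only how differences between gates vary from one of these libraries to the other. There is no second condition, and the comparisons are between kinds of cell within both libraries.

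Library 1 held 6592 barcodes and 52344178 UMIs (unique molecular identifiers, each standing for 1 captured transcript), and library 2 held 5080 barcodes and 38678103 UMIs. After filtering, 3918 and 3041 cells remained, with medians of 9955 and 9797 UMIs, and 3 kept barcode sequences occurred in both libraries. Cd34 stood at 86.6 CPM (counts per 1000000 UMIs of the cells summed) over the kept cells of library 1 and 101 CPM in library 2, and the keratins Krt5 and Krt14 together at 6779 and 6941 CPM. Cells were then gated on short marker lists that hold no member. The bulge gate (Krt24, Grem1, Tgm5) took 21 cells of library 1 and 307 of library 2. Gates named only for a leading marker were Gdf10 (261 and 169 cells), Wfdc18 (932 and 296), Fgf5 (354 and 290) and Edn2 (438 and 299). The inner root sheath gate held 40 and 22 cells, the upper follicle gate 21 and 32, and the fibroblast gate 44 and 32. Cells that passed more than 1 gate, 524 and 433, were left out, and 1261 and 1102 passed none.

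The bulge gate differed between the libraries in more than its size. Its cells in library 1 carried 1924 CPM of the Wfdc18 gate's markers, against 689 CPM in library 2, and 134 CPM of 12 cell-cycle markers, against 1079 CPM. Values of the bulge gate are therefore given for each library, and those of library 1 rest on 21 cells.

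UMIs were summed over the cells of each gate and library, and the sums were compared with edgeR's quasi-likelihood test, two-sided, with Benjamini-Hochberg adjustment over all 11527 genes tested. A gene counted as called where its adjusted p was under 0.05. Of the 29 members, 21 passed edgeR's filter on low counts, 11 with S100 symbols and 10 annexins. A member that passed through the one gate where it is high had to differ, so counts over the 21 say nothing of the families as a whole. The joint test over the 5 follicle gates (bulge, Gdf10, Wfdc18, Fgf5 and Edn2) called 20 of the 21, where it called 38.2% of all genes; S100pbp was the exception, with an adjusted p of 0.068 by edgeR. The comparisons below share gates as references, so they are not independent of each other. In each fold change the mean of several gates was taken over logs. Gates with very low levels pull such a mean down, so it lies below the plain mean.

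**Figure D1:**
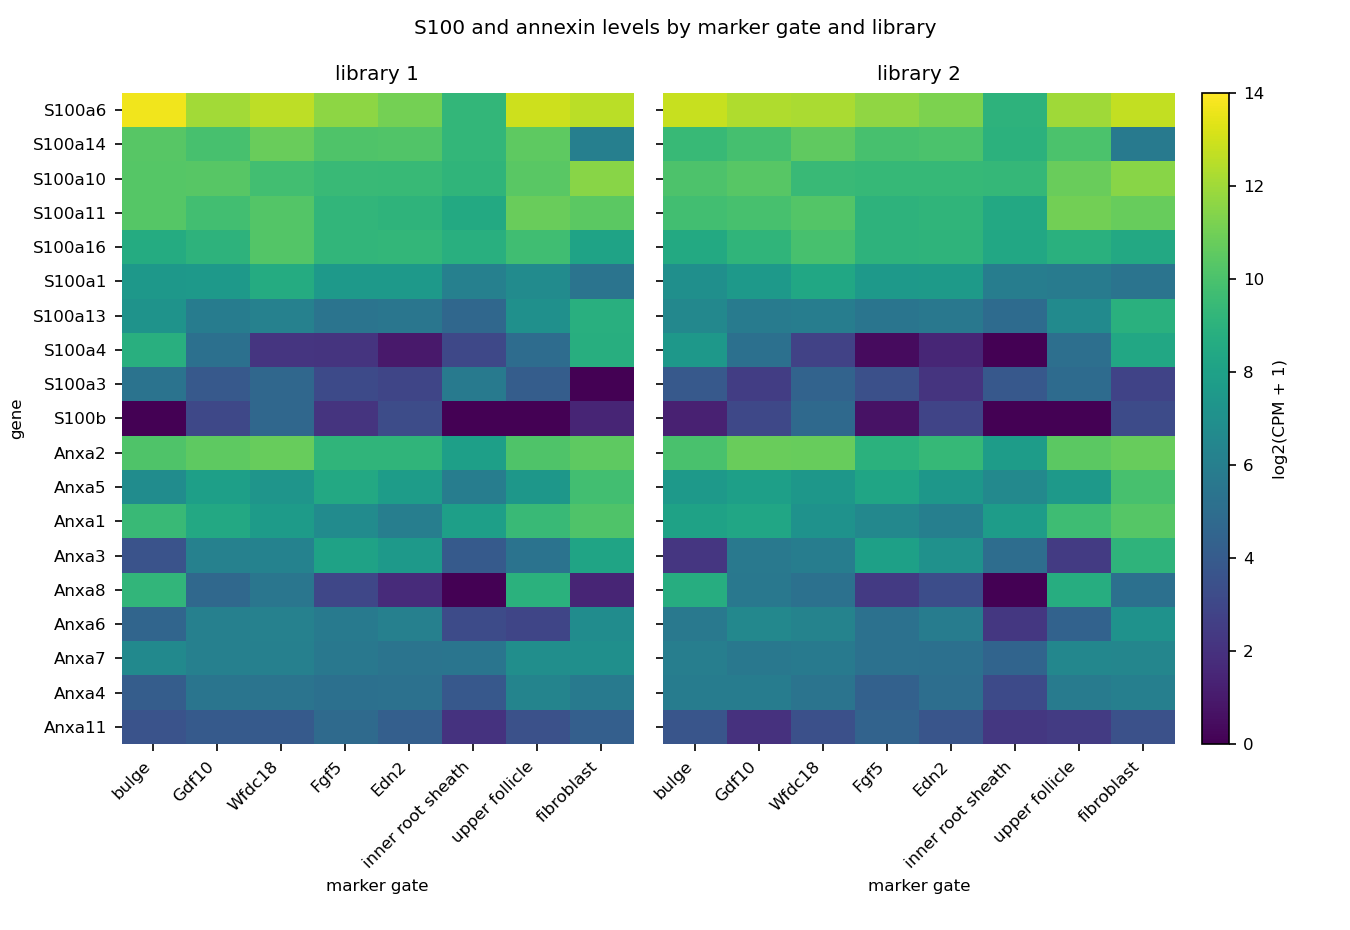
Levels of the 19 members that reached 20 CPM in both libraries in at least 1 gate, as log2(CPM + 1) by colour, with genes in rows, the 8 gates in columns and 1 panel for each library. S100a6 is at the bright end in every gate but the inner root sheath, S100a4 and Anxa8 are dark in the Fgf5, Edn2 and inner root sheath gates, and S100a14 is darkest in the fibroblast gate.

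Against the other 4 follicle gates, the bulge gate stood apart by S100a4 and Anxa8. Neither was particular to it, since Anxa8 was also high in upper follicle cells and S100a4 in fibroblast-gate cells. S100a4, known for binding non-muscle myosin and for its activity in motile cells, stood at 452 CPM in the bulge gate of library 1 and 179 CPM in library 2. Its highest value in the other 4 follicle gates was 35.2 CPM, in the Gdf10 gate of library 2, and in the Edn2 gate it was at 0.928 and 1.83 CPM. Both bulge values were thus above all 8 of the others, and the log2 fold change against the mean of the 4 gates was 5.94 (SE 0.27, adjusted p = 7.8e-13, edgeR). The very low Fgf5 and Edn2 gates pull that mean of logs down, so 5.94 exceeds the difference from a plain mean. In library 1, 1 cell gave 30.9% of the S100a4 UMIs of the gate, and in library 2 the top cell gave 4.64%. The annotation places Gm42674 over S100a4 on the same strand and A630023A22Rik over Anxa8 on the other, so UMIs of these genes may be shared; Gm42603 overlaps Anxa3 and 1500015L24Rik overlaps Anxa1.

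After each cell was thinned to 5000 UMIs, S100a4 had a UMI in 42.1% of the bulge cells of library 1 (95% Clopper-Pearson interval 20.3% to 66.5%) and in 34.8% of those of library 2 (29.4% to 40.6%). Without thinning the shares were 61.9% and 41.4%. In the Fgf5 gate the thinned shares were 0.601% and 0 of 270 cells, which allows up to 1.11%; median depths were 7866 and 9751 UMIs in the bulge gate and 10664 and 10754.5 in the Fgf5 gate. Intervals and limits cover counting error only. S100a4 was also high in fibroblast-gate cells and in the few cells of an immune gate, at 2547 and 698 CPM. In the bulge gate the 5 immune markers (Ptprc, Cd74, Lyz2, Tyrobp, Fcer1g) summed to 0 and 3.15 CPM, with 5 of 5 and 1 of 5 at 0, and the 6 fibroblast markers to 16.7 and 12.9 CPM, with 4 and 2 at 0. Those sums in the cells' own gates were 46002 and 42039 CPM for immune and 53660 and 44703 CPM for fibroblast markers.

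Anxa8, an annexin found in stratified epithelia, stood at 602 and 418 CPM in the bulge gate. The other 4 follicle gates lay between 2.32 and 47.7 CPM, so the groups did not overlap. The log2 fold change was 5.05 (SE 0.27, adjusted p = 1.2e-11, edgeR). Detection was more even than for S100a4: 78.9% of thinned bulge cells in library 1 and 73.7% in library 2 had an Anxa8 UMI, against 0.971% and 2.86% in the Edn2 gate and no cell among the 9 and 13 of the immune gate.

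S100a6, a small S100 protein abundant in proliferating and epithelial cells, was high throughout and highest in the bulge gate, at 13154 and 7295 CPM. In the other 4 gates it lay between 2196 CPM and 6250 CPM, below both bulge values, and the log2 fold change was 1.41 (SE 0.16, adjusted p = 5.0e-07, edgeR). S100a13, which takes part in the release of proteins that lack a signal peptide, was at 145 and 91.9 CPM, above the 41.1 to 70.5 CPM of the others (log2 fold change 0.97). Anxa1, a membrane-binding protein known for limiting inflammation, was at 719 CPM in the bulge gate of library 1 but at 269 CPM in library 2. The second value lay below both values of the Gdf10 gate, 349 and 306 CPM, so for Anxa1 the groups overlapped although the test called it (log2 fold change 1.67, SE 0.22, adjusted p = 3.8e-06, edgeR).

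Anxa3 ran the other way. It was at 11.2 and 3.72 CPM in the bulge gate and between 48.9 and 270 CPM in the other 4 follicle gates, a log2 difference of -4.73 (SE 0.48, adjusted p = 9.1e-08, edgeR). The library 1 value is 2 UMIs from 1 cell. In all, 7 members were called higher in the bulge gate (S100a4, Anxa8, Anxa1, S100a6, S100a13, Anxa7 and S100a10) and 4 lower (Anxa3, S100b, S100a16 and S100a1), where 10.1% of all genes were called higher and 11.7% lower. S100a10, at 1288 and 1094 CPM, lay below the Gdf10 gate in each library, at 1320 and 1337 CPM. Anxa7 overlapped too, since its 62.4 CPM in library 2 lay below the 68.0 CPM of the Gdf10 gate of library 1. The bulge calls of S100a10, Anxa7 and S100b were each lost under 1 alternative, and that of S100a1 under 2. The median log2 fold change was 0.10 over the 21 members and 0.00 over all genes.

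**Figure D2:**
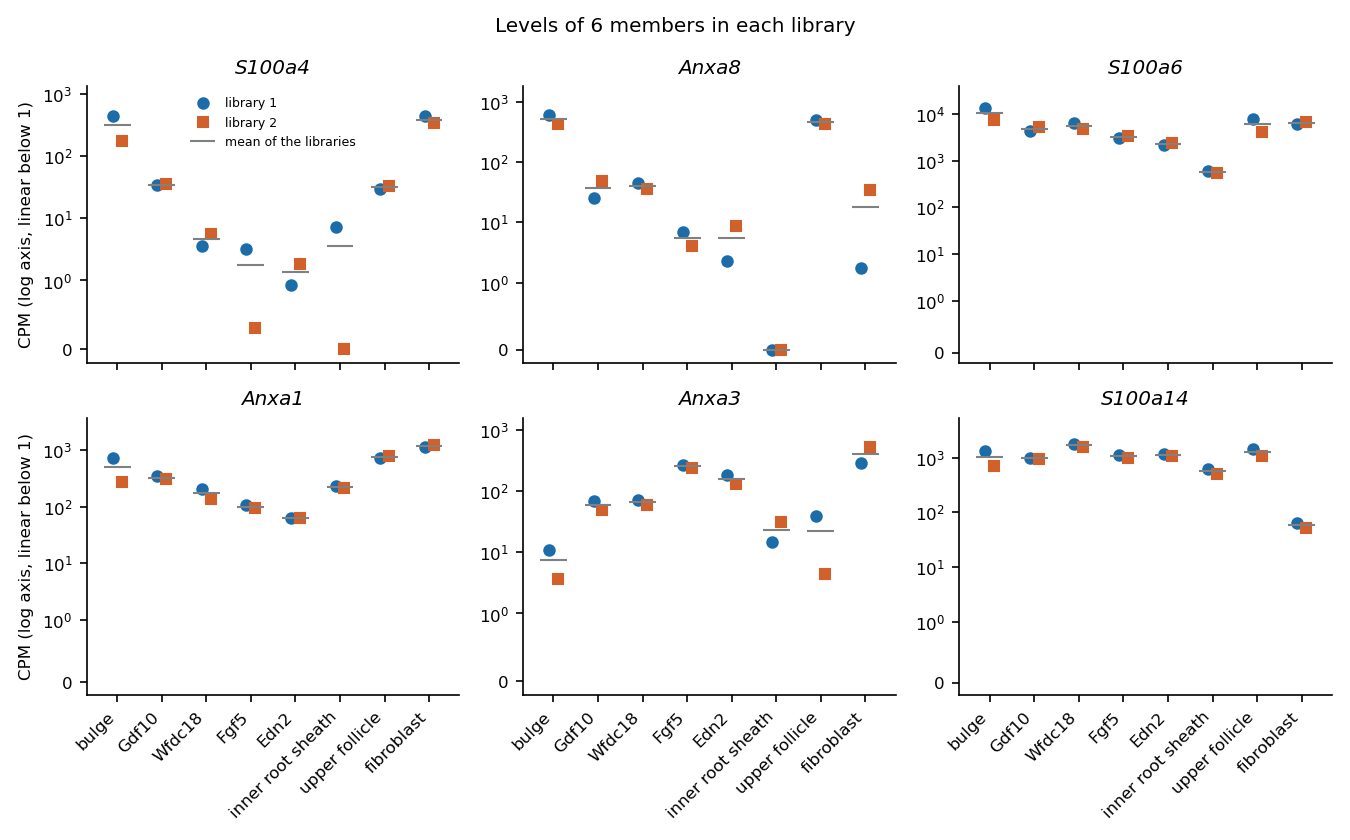
CPM of 6 members in each of the 8 gates on a log axis that is linear below 1, with a circle for library 1, a square for library 2 and a grey line at their mean. S100a4 is high in the bulge and fibroblast gates, Anxa8 in the bulge and upper follicle gates, and Anxa3 is low in the bulge gate, at 11.2 and 3.72 CPM.

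To let their letters be compared, stretches are shown upstream of S100a4, S100a6 and Anxa8, all called higher in the bulge gate. Those of S100a11 and Anxa2, both low in the Fgf5 and Edn2 gates, are shown with them. They come from RefSeq's promoter windows on GRCm38.p6, which hold 250 bases before each start, and were cut where a GENCODE exon begins; they lie at chr3:90603520-90603769 (S100a4), chr3:90612644-90612881 (S100a6), chr14:34085729-34085978 (Anxa8), chr3:93520246-93520487 (S100a11) and chr9:69453433-69453619 (Anxa2), all on the plus strand.
S100a4: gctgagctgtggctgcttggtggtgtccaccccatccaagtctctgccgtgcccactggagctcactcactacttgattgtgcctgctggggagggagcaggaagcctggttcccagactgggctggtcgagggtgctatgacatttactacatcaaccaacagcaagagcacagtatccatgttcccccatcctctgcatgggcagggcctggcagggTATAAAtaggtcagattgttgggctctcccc
S100a6: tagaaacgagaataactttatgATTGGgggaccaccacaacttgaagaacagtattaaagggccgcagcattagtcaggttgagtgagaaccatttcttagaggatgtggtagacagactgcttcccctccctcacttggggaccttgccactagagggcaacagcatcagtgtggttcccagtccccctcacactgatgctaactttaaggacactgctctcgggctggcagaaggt
Anxa8: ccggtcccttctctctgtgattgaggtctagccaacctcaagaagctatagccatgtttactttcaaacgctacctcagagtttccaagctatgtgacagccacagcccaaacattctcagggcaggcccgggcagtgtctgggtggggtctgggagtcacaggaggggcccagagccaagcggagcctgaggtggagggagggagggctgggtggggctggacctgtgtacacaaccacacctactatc
S100a11: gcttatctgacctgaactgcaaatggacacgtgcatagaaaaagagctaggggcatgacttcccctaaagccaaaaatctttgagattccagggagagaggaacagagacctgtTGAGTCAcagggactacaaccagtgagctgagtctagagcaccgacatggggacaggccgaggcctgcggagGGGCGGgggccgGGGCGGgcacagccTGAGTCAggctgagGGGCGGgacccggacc
Anxa2: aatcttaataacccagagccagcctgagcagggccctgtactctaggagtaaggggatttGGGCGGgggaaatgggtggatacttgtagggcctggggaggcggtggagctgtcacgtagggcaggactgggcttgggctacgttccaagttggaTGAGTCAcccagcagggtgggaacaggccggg

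Capitals mark 4 motifs searched on both strands, overlaps allowed: the AP-1 motif TGANTCA, the TATA box TATAAA, the GC box GGGCGG and CCAAT, the core of the CCAAT box. S100a4 holds a TATA box near its start, S100a6 a CCAAT match on the other strand, and Anxa8 none of the 4. The stretch of S100a11 holds the AP-1 motif at 2 places and that of Anxa2 at 1, and these 2 were chosen for print with the motif known. The full 250-base window of Anxa2 also holds 1 TATA box and 3 GC boxes. Its TATA box lies in the part that was cut off, and counts of windows below use uncut windows. Anxa1 and Anxa7, also called lower in the Fgf5 and Edn2 gates, have windows with 0 AP-1 matches. Over all 32851 RefSeq windows, 6.75% hold the AP-1 motif, 12.4% the TATA box, 32.7% the GC box and 33.8% CCAAT. Windows were found for 24 of the 29 members, 32 in all, and 4, 6, 10 and 7 of those hold the respective motifs. A match describes letters and does not show that a factor binds there.

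The level of these genes could also be followed by how many of the 3 bulge markers a cell showed, among cells with Krt5 thinned to 5000 UMIs. Anxa8 stood at 26.2 CPM in library 1 and 32.7 CPM in library 2 where no bulge marker was seen, at 373 and 249 CPM with 1 marker, and at 613 and 667 CPM with 2. S100a4 stood at 9.23 and 7.55 CPM with none, at 310 and 97.0 CPM with 1, and at 133 and 281 CPM with 2. Up to 2 markers Anxa8 thus went up at each step in both libraries, while S100a4 did so only in library 2. Library 1 had 51 cells with 1 marker, 15 with 2 and 1 with 3, in which neither gene had a UMI; in library 2, 72 cells with 3 markers had 775 CPM of Anxa8 and 403 CPM of S100a4. Anxa3 was at 145 and 122 CPM with no bulge marker and at 11.8 and 11.1 CPM with 1, and with 2 markers at 26.7 CPM in library 1, from 2 UMIs in 15 cells, and at 0 in the 150 cells of library 2.

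**Figure D3:**
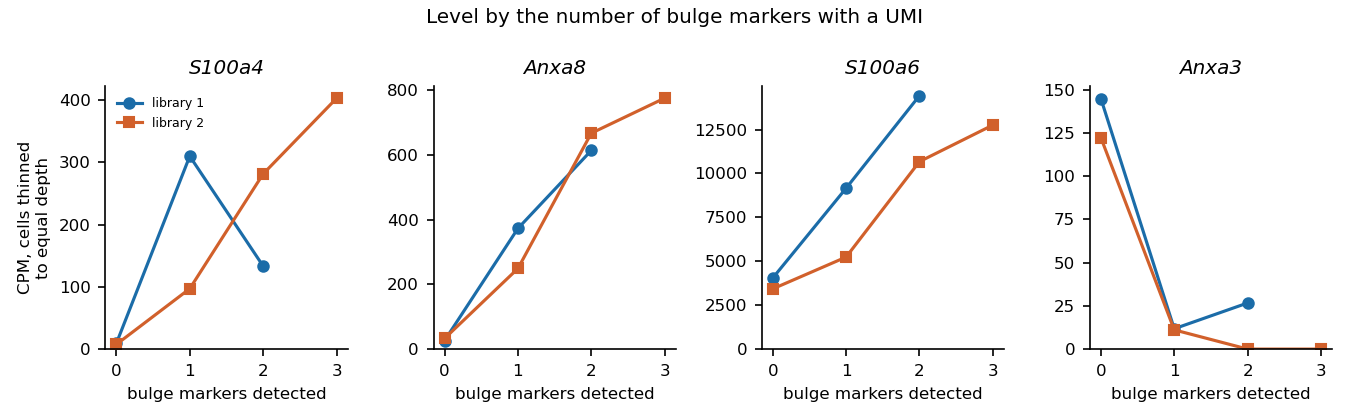
Level of 4 members in CPM against the number of bulge markers with a UMI, for Krt5-positive cells thinned to 5000 UMIs, with library 1 as blue circles and library 2 as orange squares; bins under 10 cells are not drawn. Anxa8 reaches 613 and 667 CPM at 2 markers, and Anxa3 drops to 11.8 and 11.1 CPM at 1 marker.

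Upper follicle cells, gated on Defb6, Krt79, Cst6 and Ly6d, shared the high Anxa8 of the bulge gate but not its S100a4. Anxa8 was at 499 and 428 CPM, between the 602 and 418 CPM of the bulge gate, and S100a4 at 29.7 and 33.4 CPM. Setting the upper follicle gate directly against the bulge gate, a comparison added after the levels were seen, edgeR gave S100a4 as 2.94 log2 units higher in the bulge gate (SE 0.43, adjusted p = 9.8e-05). It gave Anxa8 a log2 difference of -0.01 (SE 0.33, adjusted p = 1.0). S100a11 (1277 and 863 CPM in the bulge gate, 1780 and 2048 in the upper follicle gate) and S100a16 (390 and 366 against 842 and 481 CPM) were called lower in the bulge gate. That made 1 member higher and 2 lower of 21, where 2.27% and 4.28% of all genes (6.55% in either direction) were called; with stricter gates, gates set after thinning, or no filter on low counts, 7, 6 and 7 members were called in place of 3.

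Against the mean of the 5 follicle gates, 8 members were called higher in the upper follicle gate and 2 lower, where 6.52% and 4.19% of all genes were called. Anxa8 had the largest log2 fold change, 4.05 (SE 0.26, adjusted p = 2.4e-10, edgeR), although the follicle mean includes the bulge gate. That mean of logs is pulled down by the very low Fgf5 and Edn2 gates. The plain mean of the 5 gates was 136 and 103 CPM, so the size and rank of 4.05 depend on how gates are averaged. Anxa1 was at 713 and 789 CPM, beside the 719 CPM of the bulge gate of library 1 and above every other follicle value (log2 fold change 2.20, SE 0.20, adjusted p = 2.1e-08, edgeR). S100a11, which binds Anxa1 and relays calcium signals in keratinocytes, was above all 10 follicle values (log2 fold change 1.29, SE 0.14, adjusted p = 4.9e-07, edgeR). S100a13, Anxa7, S100a10, Anxa2 and S100a4 were the other members called higher. For S100a4 the sign again comes from averaging logs, since its 29.7 and 33.4 CPM lay below the plain mean of the 5 follicle gates, 98.7 and 44.4 CPM. The S100a4 call rests on 9 and 15 UMIs, of which 5 and 7 came from 1 cell each, and it was lost with looser gates, gates set after thinning, without doublet calls, without cycling cells and without the library block, with adjusted p-values from 0.053 to 0.88 by edgeR. The Anxa2 call (1149 and 1435 CPM, log2 fold change 0.44, adjusted p = 0.046, edgeR) was lost under 6 alternatives, with adjusted p-values from 0.055 to 0.58.

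Anxa6 and S100a1 were the members called lower in upper follicle cells. Anxa6, an annexin with a duplicated core, was at 6.61 and 20.1 CPM, below the 22.3 to 92.5 CPM of the follicle gates (log2 fold change -1.97, SE 0.43, adjusted p = 0.0031, edgeR), from 2 and 9 UMIs. S100a1 was at 106 and 55.7 CPM, below the 126 to 390 CPM of the follicle gates (log2 fold change -1.32, SE 0.21, adjusted p = 0.00011, edgeR). The keratinocyte keratins Krt5 and Krt14 were at 7055 and 14181 CPM in this gate.

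**Figure D4:**
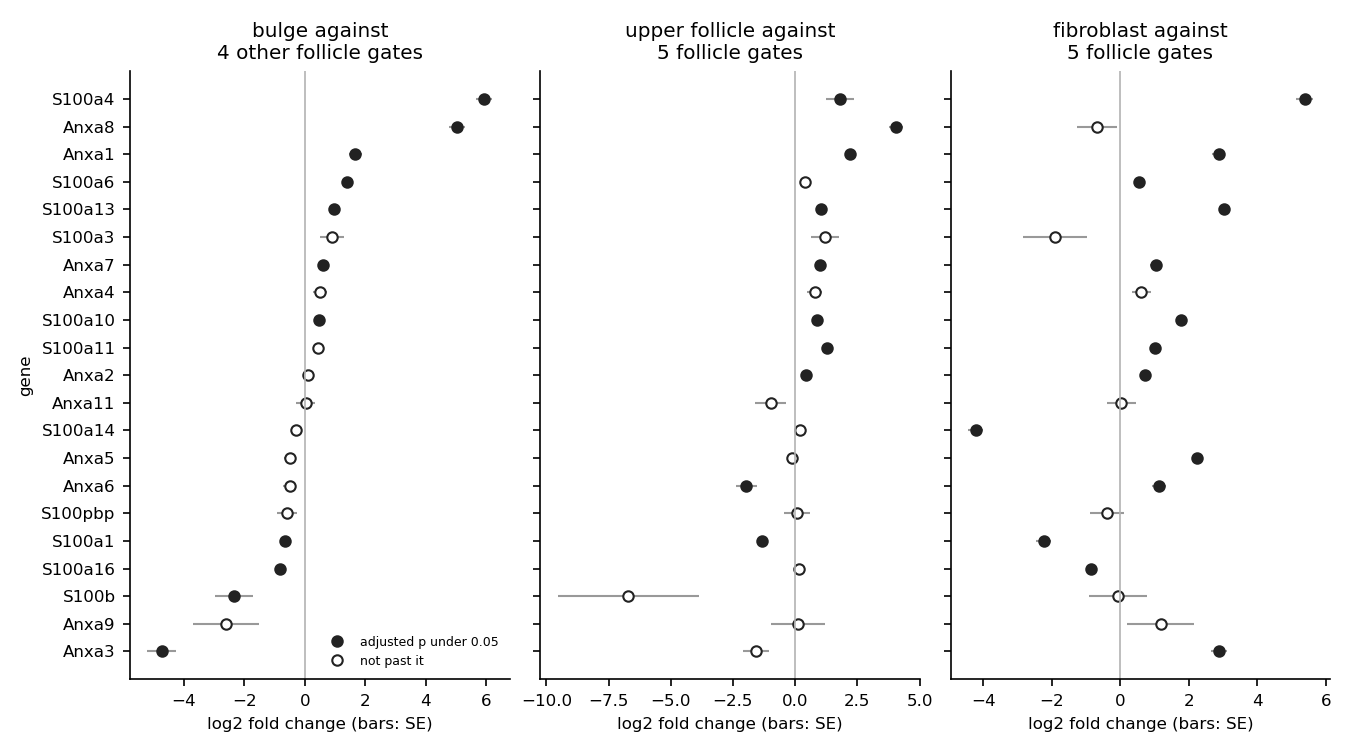
Log2 fold change with its standard error for the 21 tested members, in the order of the bulge comparison, for the bulge, upper follicle and fibroblast gates; filled points passed an adjusted p of 0.05. Anxa8 is 5.05 in the first panel, 4.05 in the second and -0.68 in the third, where it did not pass; the S100b value of the second panel comes from 0 UMIs in both libraries and is no bound.

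Fibroblast-gate cells, the cells of the sort that carry collagen transcripts, had a makeup of their own. S100a4, also called fibroblast-specific protein, was at 441 and 337 CPM, S100a13 at 459 and 472 CPM, and S100a10, the light chain of the annexin A2 complex, at 2904 and 2959 CPM. For S100a13 and S100a10 these values were above all 10 of the follicle gates, while the 452 CPM of S100a4 in the bulge gate of library 1 lay above both fibroblast values. The log2 fold changes against the follicle mean were 5.38 for S100a4 (adjusted p = 5.3e-15), 3.03 for S100a13 (adjusted p = 2.7e-15) and 1.77 for S100a10 (adjusted p = 6.3e-11), all by edgeR. For S100a4 that mean of logs is pulled down by the Fgf5 gate (3.24 and 0.317 CPM) and the Edn2 gate (0.928 and 1.83 CPM). Its difference from a plain mean of the follicle gates is smaller. In a direct comparison, S100a4 in the bulge gate differed from the fibroblast gate by -0.63 log2 units (SE 0.28, adjusted p = 0.086, edgeR), which did not pass the threshold.

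Of the 10 tested annexins, 6 were called higher in this gate (Anxa1, Anxa2, Anxa3, Anxa5, Anxa6 and Anxa7). Anxa4, Anxa8, Anxa9 and Anxa11 did not pass, and Anxa8 was at 1.77 and 34.8 CPM. Anxa1 was at 1136 and 1259 CPM, Anxa5, a binder of exposed phosphatidylserine, at 874 and 988 CPM, and Anxa3 at 287 and 540 CPM. The values of Anxa1, Anxa5 and Anxa3 were above every follicle value of the same gene, and their log2 fold changes were 2.87, 2.23 and 2.88 (adjusted p = 4.9e-12, 6.4e-12 and 2.6e-10, edgeR). For Anxa3, 1 cell of library 2 gave 88 of the 264 UMIs, and only 28.2% and 32.3% of thinned fibroblast cells had a UMI, against 70.0% and 61.9% of thinned Fgf5-gate cells.

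S100a14, an epithelial S100 gene, was the member that marked the opposite pole. It was at 63.8 and 51.1 CPM in the fibroblast gate, from 8 and 4 cells with a UMI, and between 702 and 1791 CPM in the 5 follicle gates, with a log2 fold change of -4.23 (SE 0.22, adjusted p = 1.3e-13, edgeR). In library 2 a single cell held 19 of its 25 UMIs. Krt5 and Krt14 together were at 395 and 1212 CPM in the same cells, and the part that keratinocyte RNA plays in the S100a14 level was not tested. S100a1, best known from heart muscle, and S100a16 were also called lower, at 40.8 and 40.9 CPM and at 278 and 352 CPM. In all, 11 members were called higher and 3 lower, where 21.4% and 18.6% of all genes were called. The median log2 fold change was 0.73 over the members and -0.15 over all genes; with another scaling, edgeR's RLE, the median of all genes moved up by 0.18.

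The direct comparison of the bulge and fibroblast gates, also added after the levels were seen, called 5 members higher in the bulge gate and 8 lower, where 16.8% and 19.3% of all genes (36.1% in either direction) were called. Anxa8 (log2 difference 4.72), S100a14 (adjusted p = 6.9e-12, edgeR), S100a3 (2.63), S100a1 (1.71) and S100a6 (0.58) were the higher ones. Among the lower ones, Anxa3 differed most, at -6.67 (SE 0.50, adjusted p = 2.4e-10, edgeR), followed by Anxa5 at -2.61 and S100a13 at -2.26. The S100a3 and S100a6 calls had adjusted p-values of 0.033 and 0.043, and each was lost under 5 of the alternatives. From library 2 alone the S100a6 difference was 0.02, and that of S100a3 was 1.03 against 5.64 from library 1.

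The Wfdc18 gate was high in S100a1, S100a16 and S100a14. S100a1 was at 390 and 322 CPM, against 126 to 198 CPM in the other 4 follicle gates (log2 fold change 1.03, SE 0.13, adjusted p = 2.8e-06, edgeR). S100a16, an S100 protein with a single working calcium site per chain, was at 1201 and 982 CPM, against 366 to 628 CPM (log2 fold change 1.10, SE 0.14, adjusted p = 2.6e-06, edgeR). For both genes the Wfdc18 values of each library were above all 8 others. S100a14 was at 1791 and 1531 CPM, against at most 1316 CPM in the other 4 follicle gates (log2 fold change 0.70).

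S100b and Anxa9, members with few UMIs, were found mostly in the same gate. S100b, familiar from glia and melanocytes, was at 24.3 and 26.2 CPM there and at no more than 8.58 CPM in the other follicle gates (log2 fold change 2.81, SE 0.26, adjusted p = 3.9e-08, edgeR). The 4 Schwann cell markers summed to 2.82 and 2.53 CPM in this gate and the 4 melanocyte markers to 5.09 and 31.9 CPM, with no melanocyte marker at 0; their part in the S100b level was not tested. Anxa9, an annexin with altered calcium sites, was at 11.4 and 9.79 CPM, from 125 and 31 UMIs, against at most 3.29 CPM in the other follicle gates (log2 fold change 3.79). It passed the filter on low counts only through this gate, so its call here was fixed in advance and lends no support. In all, 8 members, Anxa9 among them, were called higher in the Wfdc18 gate and 1, S100a4, lower, where 11.5% and 8.68% of all genes were called. S100a4 was at 3.54 and 5.69 CPM there, below the bulge and Gdf10 gates but above the Fgf5 and Edn2 gates in each library. Its call was lost under 1 alternative.

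These levels also followed the number of the 4 Wfdc18 markers in a thinned cell. S100a1 was at 181 and 160 CPM with no marker, at 288 and 222 CPM with 2, and at 431 and 411 CPM with 4. Anxa2, which cross-links membranes and actin, went from 669 and 708 CPM with none to 1861 and 2031 CPM with 4. Both genes were higher at 4 markers than at none in each library, over 181 and 70 cells with all 4.

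In the Gdf10 gate 6 members were called higher and 0 lower, where 10.8% and 5.27% of all genes were called; by edgeR, 10 members had an unadjusted p under 0.05 in either direction, and DESeq2 called 5 in all. S100a10 was at 1320 and 1337 CPM and Anxa2 at 1471 and 1788 CPM, so that both partners of the complex were called higher (log2 fold changes 0.81 and 0.99, adjusted p = 0.00024 and 1.5e-05, edgeR). The Anxa2 values overlapped with those of the Wfdc18 gate, 1739 and 1714 CPM. S100a4 was called higher too (log2 fold change 2.37), at 34.3 and 35.2 CPM, below the bulge gate and above the other follicle gates. That sign comes from averaging the gates on the log scale: the plain mean of the other 4 gates, which the bulge gate raises, was 115 and 46.7 CPM, above the Gdf10 gate in both libraries. The others were Anxa1, Anxa6 and S100pbp.

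Calls in the Fgf5 and Edn2 gates were mostly toward lower levels. In the Fgf5 gate 3 were called higher and 12 lower, where 9.68% and 7.44% of all genes were called, and in the Edn2 gate 1 was higher and 10 lower, where 5.61% and 3.42% (9.03% in either direction) were called. The median log2 fold change of the 21 members was -0.57 in the Fgf5 gate and -0.32 in the Edn2 gate, against 0.02 and 0.02 over all genes. Without the library as a block in the fit, 9 and 7 members were called in place of 15 and 11.

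Anxa3 was the member that was higher in both. It stood at 270 and 244 CPM in the Fgf5 gate and at 188 and 134 CPM in the Edn2 gate, against at most 72.9 CPM in the other 3 (log2 fold changes 2.59 and 1.78, adjusted p = 6.3e-09 and 1.2e-05, edgeR). Anxa5 was at 344 and 297 CPM in the Fgf5 gate, above the 112 to 243 CPM of the others (log2 fold change 0.73, adjusted p = 0.0013, edgeR), and Anxa11 at 27.6 and 20.9 CPM (log2 fold change 0.89, adjusted p = 0.0019, edgeR). Among the lower members, Anxa2 was at 568 and 496 CPM in the Fgf5 gate and at 578 and 665 CPM in the Edn2 gate, and S100a11 at 597 and 525 CPM and at 543 and 570 CPM. Both genes were at 863 CPM or more in the bulge, Gdf10 and Wfdc18 gates of each library. S100a6 was lowest in the Edn2 gate, at 2196 and 2434 CPM, below all other follicle values (log2 fold change -1.25, adjusted p = 7.5e-05, edgeR). Anxa4 was called lower in the Fgf5 gate (log2 fold change -0.72, adjusted p = 0.012, edgeR), but from library 1 alone the difference was 0.05, so its sign rests on library 2.

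Inner root sheath cells, gated on the keratins Krt25, Krt71, Krt28 and Krt27, were low in most members. Of the 21, 16 were called lower against the follicle mean and 1 higher, where 13.6% and 12.0% of all genes were called, and the median log2 fold change was -1.45 against -0.14 over all genes. S100a6 was at 614 and 534 CPM, against 2196 CPM or more in every follicle gate (log2 fold change -2.99, SE 0.22, adjusted p = 1.1e-09, edgeR). Anxa2 was at 241 and 212 CPM, against 496 CPM or more (log2 fold change -2.12, SE 0.17, adjusted p = 6.4e-09, edgeR). Anxa8 had 0 UMIs among 40 and 22 cells. With 3 UMIs per library taken as the most a count of 0 allows, its level was lower than the plain mean of the follicle gates. It was at least 43.6-fold lower in library 1 and at least 17.6-fold lower in library 2. The plain mean, unlike the mean of logs used for fold changes, is raised strongly by the bulge gate, at 602 and 418 CPM. Anxa8 was at 6.97 and 4.12 CPM in the Fgf5 gate and at 2.32 and 8.77 CPM in the Edn2 gate. Those values are near the 3.13 and 5.84 CPM that 3 UMIs make in the inner root sheath gate, so no such drop can be read against those gates.

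Not all members followed. Anxa1 was at 235 and 214 CPM, inside the range of the follicle gates (log2 fold change 0.38, SE 0.22, adjusted p = 0.23, edgeR). S100a3, known from the hair cuticle, was the member called higher, at 54.2 and 13.6 CPM (log2 fold change 1.69, SE 0.36, adjusted p = 0.0012, edgeR); in library 1 a single cell held 27 of its 52 UMIs, and the library 2 value lay within the range of the follicle gates. The annotation places S100a2 and Gm42674 over S100a3 on the same strand, so its UMIs may be shared with those genes. Cells of the inner root sheath gate were deeper than the rest, with medians of 22514 and 21414 UMIs, 90.0% and 95.5% of them held at least 3 of the 12 cell-cycle markers, and the 6 fibroblast markers summed to 473 and 627 CPM, against 3.30 to 23.1 CPM in the other epithelial gates. The part of these in the low levels was not tested, and without cycling cells the gate was too small to compare.

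The 3 known pairs of an S100 protein and an annexin were set side by side over the 8 gates, on the log2(CPM + 1) scale. S100a10 and Anxa2 had a Pearson r of 0.71 in library 1 and 0.66 in library 2, and S100a11 and Anxa1 of 0.73 and 0.72. S100a6 and Anxa11 had 0.46 and 0.30. The pairs parted in the Wfdc18 gate, where Anxa2 was called higher and S100a10, at 860 and 727 CPM, was not (log2 fold change -0.22, adjusted p = 0.35, edgeR). S100a4 and Anxa8, both high in the bulge gate, had 0.38 and 0.78. The 8 points of each r share a library, so these values only describe the gates.

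Of the 18 S100 symbols, 14 lie on chromosome 3, and 12 of these within a stretch of 185 kb from S100a1 to S100a9 (GRCm38 coordinates from GENCODE M21). Neighbours in that stretch did not share 1 pattern. S100a1 and S100a13 lie head to head with 43 bases between their annotated starts, and their RefSeq windows overlap by 104 bases. Yet S100a1 was highest in the Wfdc18 gate and low in fibroblast cells, at 40.8 and 40.9 CPM, where S100a13 was highest, and their r over the 8 gates was -0.42 and -0.54. The neighbours S100a14 and S100a16, both high in the Wfdc18 gate, had an r of 0.75 and 0.63. S100a4 and S100a6, with 6837 bases from the end of one to the start of the other, were both called higher in the bulge gate and had an r of 0.59 and 0.77. S100a5, which lies between them, had 7 UMIs in each library.

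**Figure D5:**
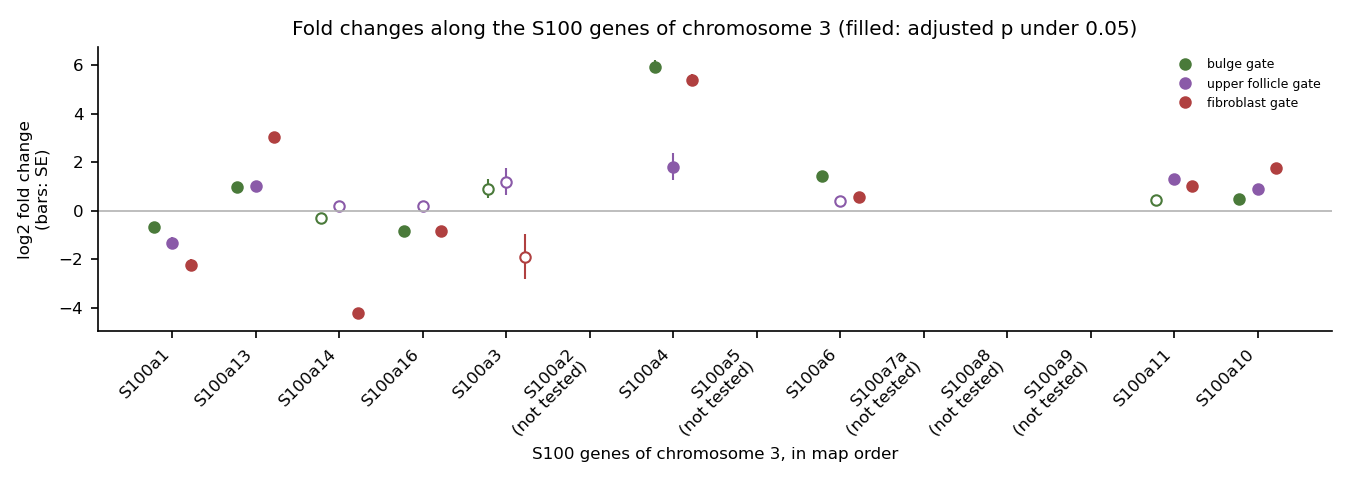
Log2 fold change with its standard error for the 14 S100 genes of chromosome 3 in map order, for the bulge gate against the other 4 follicle gates and for the upper follicle and fibroblast gates against all 5; filled points passed an adjusted p of 0.05. The neighbours S100a1 and S100a13 lie on opposite sides of 0 in each of the 3 comparisons.

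The 8 members that did not pass the filter were S100g, S100a2, S100a5, S100a7a, S100a8, S100a9, S100z and Anxa10. None had more than 26 UMIs in library 1 or 11 in library 2 over all kept cells. S100a8 and S100a9, the calprotectin pair of neutrophils and of injured or inflamed epidermis, had 6 and 2 UMIs in library 1 and 1 and 0 in library 2. S100a9 had no UMI in any of the 8 gates; in the Wfdc18 gate a count of 0 allows up to 3 UMIs per library, or 0.273 and 0.948 CPM. S100a7a had 12 and 11 UMIs, and Anxa10, a stomach annexin, had none. S100pbp and Anxa9 were tested but stayed under 20 CPM; S100pbp was between 3.30 and 19.1 CPM in all 8 gates.

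Genes around the families were read from lists of known relatives and partners. Of the fused-type S100 genes, which join an S100 domain to long repeats and neighbour the cornified envelope genes, only Tchh of 7 passed the filter, and it was called in no comparison. Flg, Hrnr and Rptn had 0 UMIs in all 8 gates. Of 17 cornified envelope genes 9 were tested, and 1 was called higher and 2 lower in the bulge gate, against 4 and 0 in the upper follicle gate; of all genes 10.1% and 11.7% were called in the bulge gate and 6.52% and 4.19% in the upper follicle gate. The proline-rich Sprr1a was at 495 and 259 CPM in upper follicle cells (log2 fold change 2.58, adjusted p = 0.00018, edgeR).

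Among 24 partners and receptors, 16 were tested, and in the bulge gate 1 was called higher and 4 lower, beside 10.1% and 11.7% of all genes. Ahnak2, a giant protein related to the Ahnak that binds the S100a10 and Anxa2 complex, was at 44.6 and 99.3 CPM in the bulge gate and 82.6 and 98.1 CPM in the upper follicle gate (log2 fold changes 2.27 and 1.98, adjusted p = 2.5e-09 and 3.2e-06, edgeR). Its levels in the Fgf5 gate were 7.72 and 7.60 CPM. Plat, the plasminogen activator that the same complex binds at the cell surface, was called higher in the Wfdc18 gate (196 and 140 CPM, log2 fold change 1.58) and lower in the bulge gate (66.9 and 11.7 CPM, log2 fold change -2.33). Tlr4, a receptor for secreted S100 proteins, was at 12.4 and 12.3 CPM in the fibroblast gate and at no more than 0.95 CPM in any follicle gate. In the fibroblast gate 3 UMIs alone make 5.32 and 6.13 CPM, so the Tlr4 values rest on few UMIs. In the bulge gate of library 1, 3 UMIs make 16.7 CPM, so a count of 0 there shows no difference from the fibroblast gate.

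Of 18 other EF-hand genes 14 were tested, and 2 were called higher and 1 lower in the bulge gate, shares near the 10.1% and 11.7% of all genes. Calml3, a calmodulin-like protein of epithelia, was at 691 and 533 CPM there and at no more than 48.7 CPM in the other follicle gates (log2 fold change 5.39, SE 0.17, adjusted p = 6.6e-16, edgeR). Calm4, a calmodulin-like protein of skin, was at 212 and 60.1 CPM in the bulge gate and at 367 and 296 CPM in upper follicle cells, against at most 4.42 CPM elsewhere in the follicle (log2 fold changes 7.15 and 7.66, adjusted p = 1.1e-10 and 4.6e-13, edgeR). Like Anxa8, both were called higher in the bulge gate and in the upper follicle gate, where Calml3 had a log2 fold change of 2.42. Unlike Anxa8, both differed between these gates when set directly against each other. Calml3 was 1.89 log2 units higher in the bulge gate (adjusted p = 2.5e-05, edgeR) and Calm4 1.94 lower (adjusted p = 0.0010, edgeR).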

How the data were processed

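Sorted follicle cells of 2 10x libraries were compared gate by gate. The deposited files hold raw UMI counts per gene and barcode for each library. Per the submitters' processing notes Cell Ranger 3.1.0, Seurat 3.1 and mm10 were used. The counter's strand setting is not given in the sources used here, so how UMIs of overlapping genes were assigned is not known.

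Barcodes under 1000 genes or above 10% mitochondrial UMIs were dropped. The members, gates and gene lists were chosen with earlier results of these data known. A cell passed a gate with at least 2 of 3 bulge markers; 3 of 5 Gdf10 markers (Gdf10, Scrg1, Nppc, Nrg1, Gnmt); 3 of 4 Wfdc18 markers (Wfdc18, Pthlh, Dclk1, Sbsn); 2 of 3 Fgf5 (Fgf5, Fbln5, Acta2) or Edn2 markers (Edn2, Dio3, Cpxm1); 3 of 4 inner root sheath, 2 of 4 upper follicle or 4 of 6 fibroblast markers (Col1a1, Col1a2, Col3a1, Dcn, Lum, Pdgfra), and with 1 (bulge, inner root sheath), 5 (upper follicle) or 3 (others) list UMIs per 10000. These thresholds were set on the gate genes and on having 20 cells per library, without reading the members, and the 35 gate genes were left out of the tests.

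UMIs were summed into 16 sums, 8 gates by 2 libraries. edgeR 4.0.16 (R 4.3.3) was fitted with TMM scaling, filterByExpr and the library as a block, since each library holds all gates, leaving 7 residual degrees of freedom; p-values are two-sided and adjusted over all genes. The SE beside an edgeR fold change was derived from the test, as the absolute log2 fold change divided by the square root of its F statistic. The fit was tested on simulated counts. Named members reached 20 CPM in at least 1 gate in both libraries. Scrublet's automatic threshold called 0 doublets, so cells in more than 1 gate were left out, and an alternative dropped the 255 and 139 barcodes with the highest scores, 0.8% per 1000 barcodes. The other alternatives were stricter and looser gates, gates set after thinning, cells without 3 of 12 cycling markers, limits of 500 genes and 20% mitochondrial UMIs, RLE scaling, no filter, DESeq2 1.42.0, no library block and each library alone.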

Additional observations from a re-analysis of the deposited data

How the results depend on the processing

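Of 109 calls of a member in a comparison, 73 were also made under every alternative that gave a value and 108 kept their sign in each library alone. The exception was Anxa4 in the Fgf5 gate, at -1.23 (log2) without library 1 and 0.0509 without library 2. Without the library as a replicate block, members called went from 15 to 9 in the Fgf5 gate and from 11 to 7 in the Edn2 gate; 20 single calls were lost in that setting, and 12 with gates set after thinning, 10 with looser gates, 10 without cycling cells and 9 with DESeq2. For the bulge gate against the upper follicle gate, 3 members were called, and 7 with stricter gates, 6 with gates set after thinning and 7 with no filter. The other counts stayed within 1.5 times the reported ones. The causes were not tested. From 1 library alone, which gives values with no test, 18 and 20 of the called differences moved by more than the spread between libraries. Depth limits the bulge gate of library 1 (21 cells), the upper follicle gate (21 and 32) and the inner root sheath gate (40 and 22), which gave no value without cycling cells.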

Other observations

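A gate on the marker Krtdap and 2 others of its list held 8 and 46 cells and was too small in library 1 to be tested. Its cells had 473 and 127 CPM of Anxa8 and 133 and 13.9 CPM of S100a4. Both genes were higher there in library 1 than in library 2, and Anxa8 was above the other follicle gates except the bulge gate. The immune gate, with 9 and 13 cells, had S100a10 at 2483 and 2221 CPM and S100a13 at 362 and 233 CPM, while S100a16 was at 10.7 and 11.6 CPM.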
